A study of Mus musculus with 18 samples.

Results

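Cholesterol synthesis and the other targets of SREBP-2 were followed as a set of 27 genes in the livers of 18 mice. The genes were chosen by name, as array probes with the listed symbol or an alias of the same RefSeq transcript, and 38 probes were found for them, with 1 probe for 17 genes and several for 10. The set covers 18 enzymes from acetoacetyl-CoA to cholesterol precursors, the sensor proteins around SREBP-2 and 5 further targets, and 25 of the 27 genes were among the 15951 genes tested between the diets. Male C57BL/6J mice, 13 weeks old at the end, had eaten a high-fat diet for 5 weeks from 8 weeks of age, in which lipid supplied 51.1% of the energy. In 10 mice the fat was palm oil, with 55.6% saturated, 34.8% monounsaturated and 8.8% polyunsaturated fatty acids. In 8 mice it was linseed oil, with 9.7% saturated, 22.5% monounsaturated and 66.7% polyunsaturated fatty acids, 49.7% being alpha-linolenic acid (ALA). Both groups ate a high-fat diet of equal protein and carbohydrate share, and no low-fat group was analysed here. Each mouse gave 1 single-colour array of total RNA from a piece of whole liver. Mice were caged together, and the labels do not tie them to cages, so the p-values measure the spread between these mice. Levels are log2 intensities of the brightest usable probe minus the array's 75th percentile. They are therefore compared between mice for one gene and not between genes.

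Hepatocytes make cholesterol from acetyl-CoA by way of mevalonate, isoprenoid diphosphates, squalene and lanosterol. The genes of almost all these steps are switched on by SREBP-2, a transcription factor held in the endoplasmic reticulum by its escort Scap and the anchor proteins Insig1 and Insig2 when membranes are rich in sterol. When sterol falls, Scap carries SREBP-2 to the Golgi, where it is cut and released to the nucleus, and its target genes rise together. Insig1 is itself a target of SREBP-2, whereas Insig2 is not.

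The promoters are shown because the genes were seen to move together from mouse to mouse, with Insig2 apart. RefSeq (GRCm38.p6) held the stretch from 250 bases before to 50 bases after the start site for 22 of the 27 genes, at 29 start sites. Short motifs were searched on both strands: TCACNCCAC, a form of the sterol regulatory element that SREBP binds, CCAAT, the box bound by NF-Y, and GGGCGG, the box bound by Sp1. Other forms of the sterol regulatory element were not searched. CCAAT was found in 19 of the 22 genes, against 41.1% of the 27025 genes with a promoter in the table. GGGCGG was also found in 19 of the 22, against 38.2% of all genes. TCACNCCAC was found in 1 gene of the set, Hmgcs1, and in 1.44% of all genes. Matches of different motifs overlapped in 0 cases. A match describes letters in the window, not a bound site. The stretches below end at the base before the start site and run 5′ to 3′ along the gene's strand, with matches to a motif or its reverse complement in capitals. They are Hmgcs1 (chr13:119690101-119690350, plus strand), which has all 3 motifs, Mvk (chr5:114444019-114444268, plus strand), Lss (chr10:76531355-76531604, plus strand), Insig1 (chr5:28071162-28071411, plus strand) and the farthest upstream of 3 listed starts of Insig2 (chr1:121332590-121332839, minus strand).
Hmgcs1: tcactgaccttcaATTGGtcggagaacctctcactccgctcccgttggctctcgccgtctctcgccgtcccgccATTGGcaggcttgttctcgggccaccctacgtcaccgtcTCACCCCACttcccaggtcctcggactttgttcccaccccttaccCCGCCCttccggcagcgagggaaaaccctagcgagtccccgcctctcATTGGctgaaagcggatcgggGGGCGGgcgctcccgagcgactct
Mvk: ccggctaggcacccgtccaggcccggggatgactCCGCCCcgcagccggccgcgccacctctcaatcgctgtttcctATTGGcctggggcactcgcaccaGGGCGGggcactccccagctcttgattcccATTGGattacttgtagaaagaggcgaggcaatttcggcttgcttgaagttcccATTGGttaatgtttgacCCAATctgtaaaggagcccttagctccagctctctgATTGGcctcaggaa
Lss: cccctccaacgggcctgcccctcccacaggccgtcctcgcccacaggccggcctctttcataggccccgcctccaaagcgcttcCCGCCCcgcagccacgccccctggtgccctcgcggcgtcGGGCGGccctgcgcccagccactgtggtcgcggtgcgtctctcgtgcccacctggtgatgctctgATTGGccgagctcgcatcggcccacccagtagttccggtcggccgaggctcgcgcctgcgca
Insig1: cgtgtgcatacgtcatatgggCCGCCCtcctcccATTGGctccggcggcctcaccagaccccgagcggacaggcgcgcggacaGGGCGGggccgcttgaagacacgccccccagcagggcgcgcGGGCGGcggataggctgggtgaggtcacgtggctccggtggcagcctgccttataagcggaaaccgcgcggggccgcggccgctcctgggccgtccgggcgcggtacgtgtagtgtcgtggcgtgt
Insig2: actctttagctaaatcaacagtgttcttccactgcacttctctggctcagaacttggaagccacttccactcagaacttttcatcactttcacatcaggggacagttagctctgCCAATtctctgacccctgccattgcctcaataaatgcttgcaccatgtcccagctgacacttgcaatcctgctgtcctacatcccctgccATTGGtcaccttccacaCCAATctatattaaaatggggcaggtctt
The Mvk stretch is shared, since the start of Mmab lies 242 bases away on the opposite strand, so that both genes are read outward from the same piece of DNA. Across mice the levels of Mvk and Mmab had a Pearson r of 0.91 in the linseed group and 0.87 in the palm group, close to the r of Mvk with the mean of the other members (0.87 and 0.90).

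The first comparison asked whether linseed oil in place of palm oil changed the expression of these genes. No gene of the set differed between the diets beyond the spread between mice: 0 of 25 passed an adjusted p of 0.05 (limma, Benjamini-Hochberg over all 15951 genes), where 0.759% of all genes passed. Nor did any have an unadjusted p under 0.05, a mark that 10.2% of all genes reached. Under some alternatives 1 or 2 members reached that mark. It was 1 with the mean of a gene's probes, and 2 with the replicate number as a block or without palm replicate 2. The share of all genes reaching it there was not counted. Of the 25 genes, 19 were lower on linseed oil and 6 higher, against 51.3% of all genes lower. Under the other scalings 17 to 21 were lower, but without linseed replicate 7 it was 14 of 25, without palm replicate 3 14 of 24 and without palm replicate 1 15 of 24. The median difference, linseed minus palm, was −0.14 on the log2 scale, and −0.0038 over all genes tested. The levels of both diets overlapped in each of the 25 genes, and the share of all genes with such an overlap was not counted. The median moved with single mice: it was −0.031 without linseed replicate 7, −0.035 without palm replicate 3, −0.060 without palm replicate 1 and −0.077 without palm replicate 6, and reached −0.22 without linseed replicate 8 and −0.23 without palm replicate 2. It was −0.26 without slides 4 and 5 and −0.091 with slide as a block. In whole liver, fewer cells of a type and less RNA per cell cannot be told apart.

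**Figure D1:**
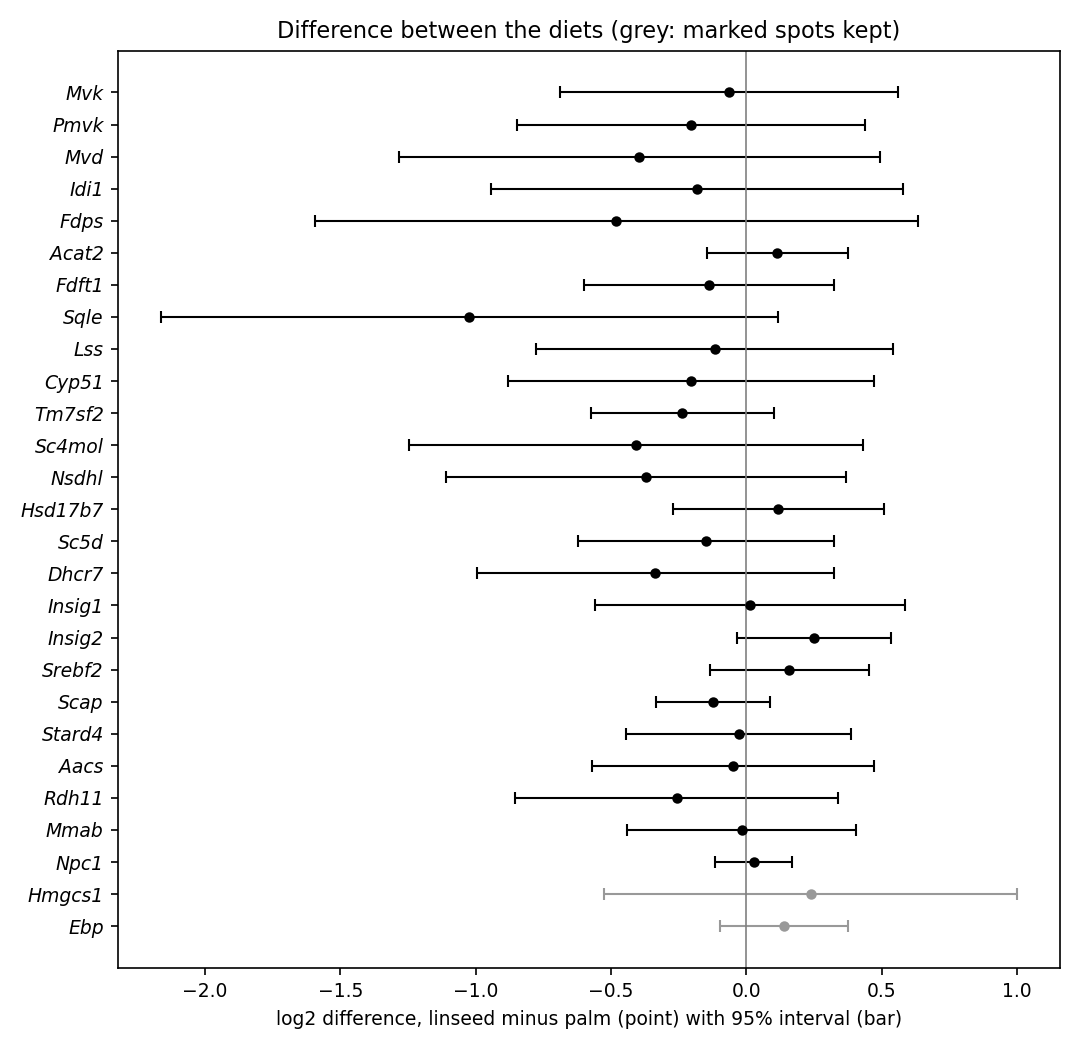
Difference between the diets for each gene (log2 scale, linseed minus palm, point) with its 95% interval from limma (bar). Grey marks Hmgcs1 and Ebp, measured only with marked spots kept. Every interval crosses 0, and Sqle has the widest, from −2.16 to 0.12.

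Among the 7 genes of the mevalonate and isoprenoid steps, 6 were tested, 5 of them lower and 1 higher on linseed oil. Mvd, which decarboxylates mevalonate diphosphate to isopentenyl diphosphate, ranged from −1.64 through a median of −0.38 to 1.52 in the palm group and from −2.05 through −0.76 to 0.23 in the linseed group. The ranges overlapped over most of their length, and the difference was −0.40 ± 0.42 (SE; limma adjusted p = 0.820). Idi1, the isomerase of isopentenyl diphosphate, lay between 2.41 and 4.83 (median 3.66) on palm oil and between 2.08 and 4.23 (median 3.55) on linseed oil. The lowest mouse of each diet stood more than 4-fold below the highest, 4.43-fold in the linseed group and 5.37-fold in the palm group, and the diet difference of Idi1 was −0.18 ± 0.36. Fdps, which joins isoprenoid units to farnesyl diphosphate, had values on 13 arrays because 5 spots were marked by the image software. It ranged from 3.99 to 6.48 (median 5.40, n = 6) on palm oil and from 3.22 to 6.18 (median 4.74, n = 7) on linseed oil, a difference of −0.48 ± 0.52 (limma adjusted p = 0.825). Mvk and Pmvk, the kinases that phosphorylate mevalonate in turn, differed by −0.063 ± 0.30 and −0.20 ± 0.31. Acat2, the cytosolic thiolase that makes acetoacetyl-CoA, stood apart from the others of the group by a narrow spread: 4.10 to 4.73 on linseed oil and 3.67 to 4.57 on palm oil, with a difference of 0.12 ± 0.12 (limma adjusted p = 0.820).

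Hmgcs1, the cytosolic HMG-CoA synthase, was not tested with the others, because its spot was marked on 3 linseed and 6 palm arrays. With marked spots kept it ranged from 3.19 through 4.61 to 5.01 on linseed oil and from 2.85 through 4.09 to 5.91 on palm oil. The difference was 0.24 ± 0.36 (limma adjusted p = 0.877 over 16544 genes, of which 0.901% passed with marked spots kept), and 0.55 over the unmarked spots alone. The highest mouse of the palm group was replicate 3, whose spot was marked, and the lowest was replicate 8, unmarked and 8.32-fold below it. The highest unmarked palm value was 5.17, in replicate 1.

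All 3 genes of squalene and lanosterol formation had negative differences. Sqle, the squalene epoxidase and a rate-limiting step late in the pathway, had the smallest p of the 25 tested genes; with marked spots kept, or with the mean of a gene's probes, Insig2 had a smaller one. Its levels in the palm group ran from 0.94 through 2.86 to 4.01, and in the linseed group from −0.54 through 2.10 to 3.26 over 7 mice, with the spot of linseed replicate 8 left out. Linseed replicates 2 and 7, at −0.27 and −0.54, lay below each of the other 15 mice measured, while the other linseed mice lay within the palm range. The mean was 2.54 ± 1.03 (SD, n = 10) on palm oil and 1.52 ± 1.40 (SD, n = 7) on linseed oil, 2.03-fold lower. That difference, −1.02 ± 0.54, had a 95% interval from −2.16 to 0.12 and a limma adjusted p of 0.557. With marked spots kept, linseed replicate 8 added a value of 3.16 and the difference shrank to −0.82 ± 0.54 (limma adjusted p = 0.636). Lss, the cyclase that forms lanosterol, ranged from −1.40 through −0.31 to 0.74 on palm oil and from −1.52 through −0.43 to 0.33 on linseed oil, with a difference of −0.12 ± 0.31. Fdft1, squalene synthase, differed by −0.14 ± 0.22 and varied more on palm oil (SD 0.58) than on linseed oil (SD 0.35), a contrast that was not tested.

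**Figure D2:**
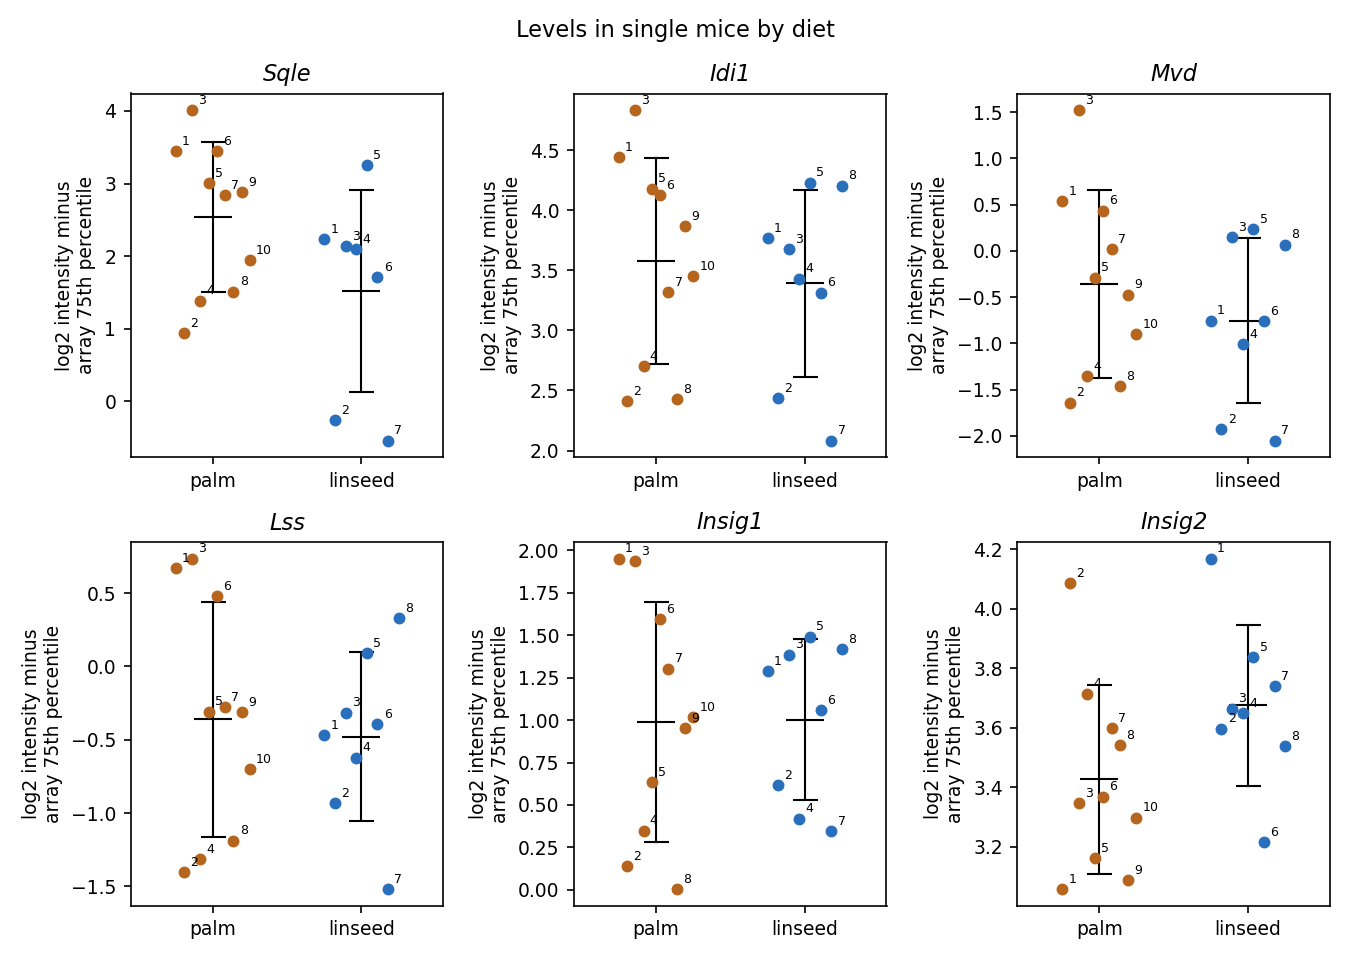
Levels of 6 genes in single mice (log2 intensity minus the array's 75th percentile), palm in brown and linseed in blue, with replicate numbers; the bar is the mean and SD. In Sqle, Idi1, Mvd, Lss and Insig1 palm replicates 1, 3 and 6 lie above palm replicates 2, 4 and 8, and linseed replicate 7 is the lowest of its diet, whereas in Insig2 palm replicate 2 is the highest of its diet.

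Of the 7 tested genes for the steps after lanosterol, 6 were lower and 1 was higher on linseed oil, with a median difference of −0.24. Sc4mol (now Msmo1), the C4 methyl oxidase, ranged from 2.97 through 4.34 to 5.57 on palm oil and from 2.22 through 3.90 to 4.80 on linseed oil, a difference of −0.41 ± 0.40 (limma adjusted p = 0.801). Nsdhl, which acts with it in removing the C4 methyl groups, ran from −0.55 to 1.68 on palm oil and from −0.90 to 1.36 on linseed oil, a difference of −0.37 ± 0.35. Dhcr7, which makes cholesterol from 7-dehydrocholesterol, differed by −0.34 ± 0.32. In all of these the ranges of both diets overlapped. Cyp51, the lanosterol 14-demethylase, and Sc5d, the lathosterol desaturase, differed by −0.20 ± 0.32 and −0.15 ± 0.23. Tm7sf2, a C14 sterol reductase, had a narrower spread, 4.96 to 6.10 on palm oil and 4.91 to 5.80 on linseed oil, and its difference of −0.24 ± 0.16 (limma adjusted p = 0.666) came out alike with its second probe, at −0.22. Hsd17b7, the 3-keto reductase, was 0.12 ± 0.19 higher on linseed oil by its brighter probe and −0.077 by the other. Ebp, the sterol isomerase, whose spot was marked on 11 arrays, differed by 0.14 ± 0.11 with marked spots kept (limma adjusted p = 0.730) and by −0.14 over the unmarked spots alone, so its direction turned with the marked spots.

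The genes around SREBP-2 itself showed small differences. Insig2 ranged from 3.06 through 3.36 to 4.09 on palm oil and from 3.21 through 3.66 to 4.17 on linseed oil, 0.25 ± 0.14 higher on linseed oil with a 95% interval from −0.036 to 0.54 (limma adjusted p = 0.572). Of the 8 linseed mice, 7 lay above the palm median, and the second Insig2 probe, for another transcript variant, gave 0.51. With the mean of both probes the difference was 0.38 (limma adjusted p = 0.338). Insig1 had nearly equal means, 0.99 ± 0.71 (SD, n = 10) on palm oil and 1.00 ± 0.47 (SD, n = 8) on linseed oil, and the sign of its difference of 0.015 turned under the same scalings as that of Npc1. Srebf2, the gene of SREBP-2, differed by 0.16 ± 0.14 and Scap by −0.12 ± 0.10. The dim second probe of Srebf2, above background on 6 arrays, did not follow the brighter one.

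Among the 5 further targets, Rdh11, a retinol dehydrogenase, had the largest difference, −0.26 ± 0.28. It ranged from 1.02 through 1.76 to 2.86 on palm oil and from 0.85 through 1.74 to 2.42 on linseed oil. Stard4, a cytosolic sterol carrier, Aacs, the acetoacetyl-CoA synthetase, and Mmab, an enzyme of cobalamin handling, differed by −0.029 ± 0.20, −0.048 ± 0.25 and −0.017 ± 0.20. Stard4 and Mmab changed sign with the probe read, at 0.050 for the second Stard4 probe and at 0.17 and −0.24 for the other 2 Mmab probes. Npc1, which exports cholesterol from lysosomes, was the steadiest gene of the set, between 0.70 and 1.05 on palm oil and between 0.72 and 1.11 on linseed oil. Its difference of 0.027 had a 95% interval from −0.12 to 0.17, and its sign turned under 2 of the other scalings (−0.0038 and −0.013).

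The second comparison was between mice of the same diet. Here the set varied widely: the median residual SD of the 25 genes within diets was 0.62 on the log2 scale, against 0.24 over all genes tested. Of the 25, 23 varied more than the median gene and 14 lay in the top 10% of all genes. Sqle varied most, with an SD of 1.19, at the 99.5th percentile of all genes. Its highest mouse exceeded its lowest 8.44-fold in the palm group and 13.9-fold in the linseed group. Fdps (SD 1.03), Mvd (0.96) and Sc4mol (0.91) followed. At the other end lay Npc1 (0.13), Scap (0.20) and Acat2 (0.26).

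These swings were shared, so that a mouse high in one enzyme was high in most of them. Averaged over the set, palm replicates 3, 1 and 6 stood 0.80, 0.60 and 0.49 above the palm mean, and palm replicates 2, 8 and 4 stood at −0.67, −0.66 and −0.57. In the linseed group, replicates 8, 5 and 3 stood 0.55, 0.54 and 0.30 above the linseed mean, and replicates 7 and 2 at −0.85 and −0.56. Palm replicate 1 was above its diet mean in 24 of 25 genes and palm replicate 2 below it in 23 of 25. Linseed replicate 5 was above in 24 of 25 genes and linseed replicate 2 below in 24 of 25. The same counts over all genes were not made. The remaining mice, palm replicates 5, 7, 9 and 10 and linseed replicates 1, 4 and 6, lay between −0.15 and 0.13. From the lowest to the highest mouse the mean level over the set differed 2.78-fold in the palm group and 2.64-fold in the linseed group.

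**Figure D3:**
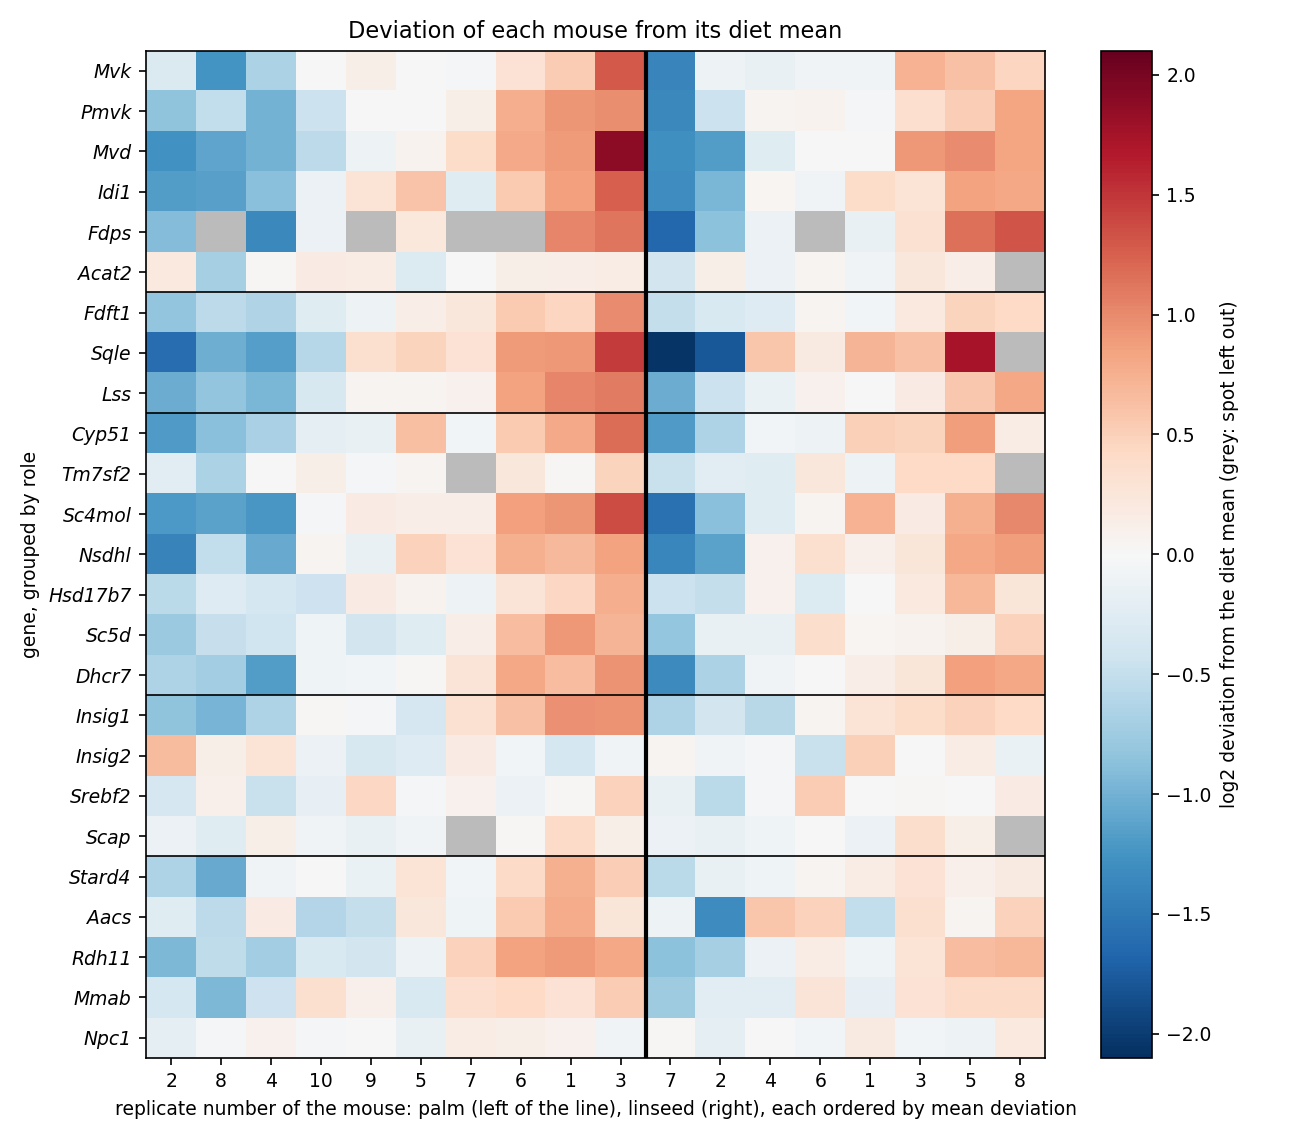
Deviation of each mouse from the mean of its own diet (colour, log2 scale) for 25 genes, grouped by role from the mevalonate steps at the top to other targets at the bottom. Palm mice are left of the line and linseed mice right, ordered by mean deviation, which runs from −0.67 to 0.80 and from −0.85 to 0.55; grey cells are spots left out.

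Pairs of genes in the set had a median Pearson r of 0.80 across linseed mice and 0.76 across palm mice (300 pairs in each), against −0.0033 and 0.0026 over all pairs of genes tested. An r above 0.7 was reached by 60.0% and 56.7% of the pairs, against 5.11% and 3.80% of all pairs. These medians are descriptions, since pairs share genes and mice. Against the mean of the other members, 10 of the 25 genes had an r above 0.9 in both diets: Pmvk, Mvd, Idi1, Fdps, Fdft1, Sqle, Lss, Sc4mol, Dhcr7 and Rdh11. A further 9 exceeded 0.7 in both. With marked spots kept, Hmgcs1 followed the others as well (r = 0.88 on linseed oil, 0.97 on palm oil), and Ebp did so less closely (0.41 and 0.64).

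Sqle served as the reference for tests of single relations, because Hmgcs1 had too few values, and 59 relations were tested, 48 of them with members. In the palm group 19 of 24 members had a relation to Sqle at an adjusted p under 0.05 by Pearson's r, and 16 by Spearman's rho. The 19 include Insig2, which ran against Sqle (r = −0.72). In the linseed group 14 of 24 passed by r and 5 by rho. The share of all genes tested that would pass against Sqle was not counted. Sc4mol gave r = 0.97 (permutation test, two-sided, n = 10, adjusted p = 0.0002) and rho = 0.98 (adjusted p = 0.0008) on palm oil, and r = 0.93 (exact permutation test, n = 7, adjusted p = 0.008) and rho = 0.96 (adjusted p = 0.0099) on linseed oil. Idi1 ranked the 7 linseed mice in exactly the order of Sqle (rho = 1.00, exact permutation test, adjusted p = 0.002). Without the 2 mice farthest from the Sqle median, which were replicates 2 and 7 in the linseed group, r stayed above 0 in 20 of 24 members on linseed oil and in 23 of 24 on palm oil, and the median r went from 0.82 to 0.61 and from 0.90 to 0.87. On linseed oil the 2 low mice were well separated from the rest, and without them r fell from 0.71 to −0.18 for Sc5d, from 0.80 to 0.11 for Stard4, from 0.54 to −0.56 for Srebf2 and from 0.53 to −0.35 for Aacs. Those 4 relations rest on the 2 low mice.

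Insig2 was the one tested gene whose r with the set was below 0 in both diets, clearly on palm oil and barely on linseed oil. Its r with the mean of the other members was −0.63 across palm mice and −0.045 across linseed mice. On palm oil its highest mice were replicates 2 and 4, at 4.09 and 3.71, which were low in the enzymes, and its lowest was replicate 1, at 3.06, which was high in them. Against Sqle the palm relation was r = −0.72 (permutation test, n = 10, adjusted p = 0.033) and rho = −0.70 (adjusted p = 0.061), and r was −0.35 without the 2 farthest mice. On linseed oil it was r = 0.22 (exact permutation test, n = 7, adjusted p = 0.647) and rho = 0.57 (adjusted p = 0.274). There r was 0.51 over the 5 mice left without the 2 farthest, so Insig2 did not run against Sqle on linseed oil. Whether the diets differ in this relation was not tested. Within diets Srebf2 itself followed its targets loosely, with r = 0.53 and 0.46 against the other members, and Scap with 0.66 in each diet. Npc1 (0.25 and 0.32), Acat2 (0.66 and 0.42) and Aacs (0.47 and 0.65) were likewise loosely tied to the set. For Srebf2 this depended on slide: over 18 mice its r with Sqle was 0.60 with diet removed and 0.84 with diet and slide removed.

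**Figure D4:**
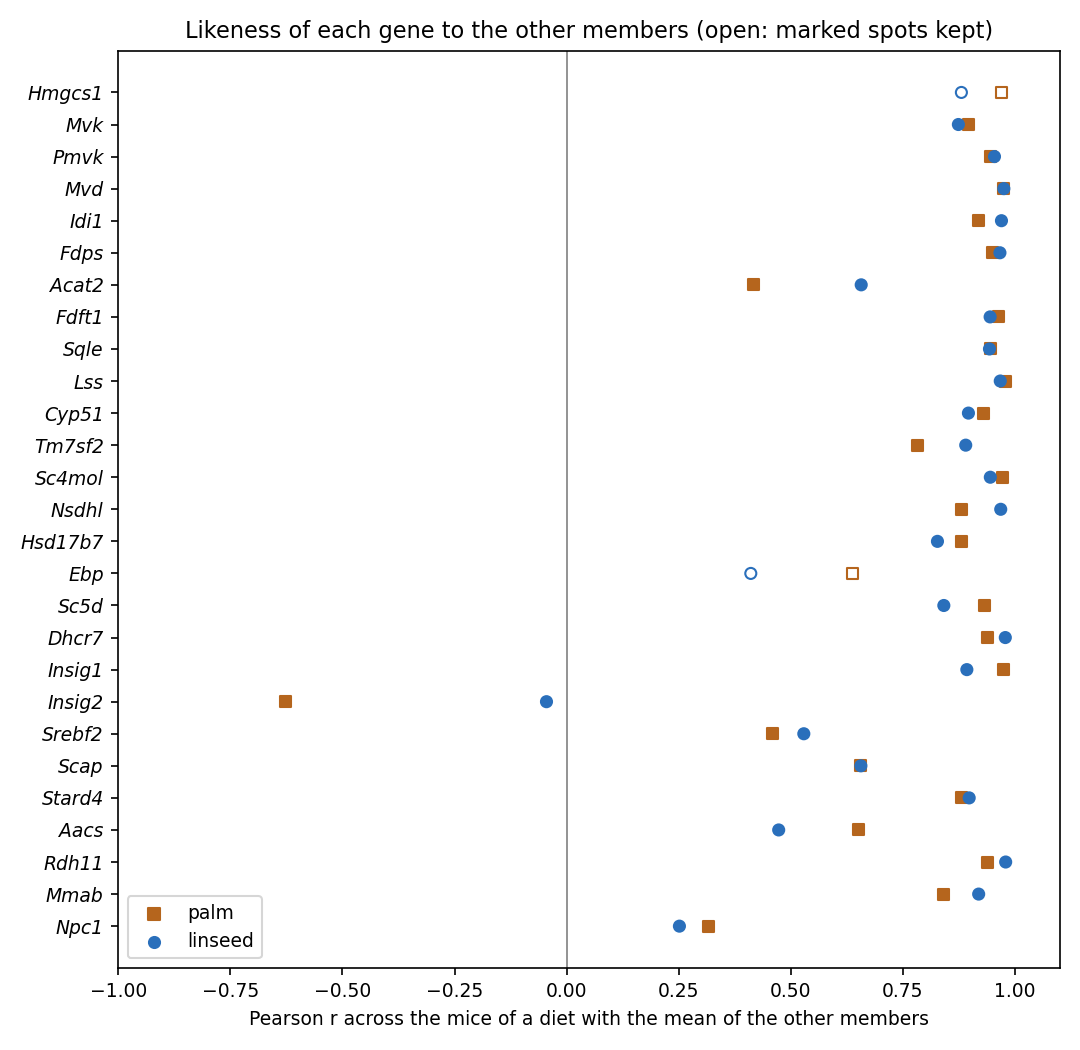
Pearson r of each gene with the mean of the other members across the mice of a diet (blue circles, linseed; brown squares, palm; open symbols, marked spots kept). Most enzymes lie above 0.8 in both diets, and Insig2 alone lies below 0, at −0.63 on palm oil and −0.045 on linseed oil.

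The arrays were taken as 5 slides, each with both diets and a single scan date. Slide 1 stands for the arrays without a barcode in the header. The image software marked 238 to 1703 spots on an array, and the 75th percentile of intensity was 117 to 204. High and low mice shared slides: palm replicates 1 and 2 were on slide 2, and palm replicates 3 and 4 on slide 3. Slide 1 held 3 mice at or above their diet mean (0.066 to 0.54), and slide 4 held both linseed replicate 7 and palm replicate 8, which were among the lowest. With diet means removed over all 18 mice the median r between members was 0.77, and with diet and slide removed it was also 0.77. Sqle was also set against 3 array measures and 9 marker lists of liver and blood cell types in each diet, and none of these 24 relations had an unadjusted permutation p under 0.05 (r from −0.49 to 0.69, smallest p = 0.098 by Pearson's r and 0.075 by Spearman's rho). Several moved without the 2 mice farthest from the Sqle median: on palm oil (n = 8) r went from −0.49 to −0.81 for the 75th percentile of intensity and from −0.18 to −0.79 for the number of marked spots. On linseed oil, with 5 mice left, r went from 0.14 to −0.96 for stellate cell markers, from 0.34 to −0.76 for endothelial markers and from 0.23 to 0.93 for lymphocyte markers. The part of these measures in the shared swings was not tested. All 7 hepatocyte markers were above background on every array, and their summed level spanned 10.3 to 11.1 on linseed oil and 10.4 to 10.9 on palm oil. The adipocyte list had 2 of 6 markers above background on every array and 1 on none. Its summed level was 1.88 to 5.28 on linseed oil and 0.46 to 3.69 on palm oil, and its r with Sqle was 0.69 on linseed oil and −0.47 on palm oil; its part in the results was not tested.

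The neighbouring pathways were read from lists of other genes. Of 13 tested genes of other sterol synthesis and its control, 0 passed (limma adjusted p; 0 at an unadjusted p under 0.05), and their median difference was −0.0030. Erlin2 (0.14 ± 0.07) and Rnf139 (−0.14 ± 0.08), both parts of sterol-dependent protein degradation, had the smallest p of that list. Of 7 genes of the isoprenoid branches, 0 passed and 1 had an unadjusted p under 0.05, Pdss2 (0.27 ± 0.10, limma adjusted p = 0.316), a subunit of the synthase for the ubiquinone side chain. Pdss1, the other subunit, differed by −0.16 ± 0.09.

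Of 12 tested genes of SREBP-1c and fatty acid synthesis, 0 passed and 2 had an unadjusted p under 0.05, with a median difference of −0.24. Those 2 were Pklr, liver pyruvate kinase (−0.55 ± 0.21, limma adjusted p = 0.342), and Pnpla3, a lipid droplet hydrolase (−1.49 ± 0.60, limma adjusted p = 0.370). This list varied between mice almost as much as the cholesterol genes, with a median residual SD of 0.59. Fasn, fatty acid synthase, followed Sqle on palm oil (r = 0.84, permutation test, n = 10, adjusted p = 0.008; rho = 0.85, adjusted p = 0.0099). On linseed oil Fasn had r = 0.86 (exact permutation test, n = 7, adjusted p = 0.038) but rho = 0.50 (adjusted p = 0.335), and r = 0.19 without the 2 farthest mice. For Srebf1, which encodes SREBP-1, the relation to Sqle did not pass in either diet (r = 0.33 on palm oil and −0.24 on linseed oil, adjusted p = 0.393 and 0.629 by permutation tests). With the members' mean, Fasn had r = 0.74 on linseed oil and 0.89 on palm oil. In the same order r was 0.43 and 0.84 for Pklr, 0.44 and 0.80 for Pnpla3, and 0.22 and 0.56 for Srebf1. The shared swings were thus not confined to the cholesterol genes, and these relations were not tested.

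Of 10 LXR targets and efflux genes, which respond to sterol excess, 1 passed, Cyp7a1, the first enzyme of bile acid synthesis, lower on linseed oil by 1.00 ± 0.22 on the log2 scale (limma adjusted p = 0.039). That call was lost when any 1 of 10 mice was left out, linseed replicates 1, 3, 4 and 7 or palm replicates 1, 2, 3, 4, 5 and 9 (difference −1.10 to −0.85 and adjusted p 0.029 to 0.082 over all 18 mice left out in turn), and under 5 of the 17 other alternatives: slide entered as a block (adjusted p = 0.054), without slide 1 (0.070), without slides 4 and 5 (0.212), with the replicate number as a block (0.075) and with no filter on dim probes (0.111). Across mice, the rho of Cyp7a1 with Sqle was 0.32 on linseed oil and −0.091 on palm oil (adjusted p = 0.576 and 0.840 by permutation tests). Abca1 and Abcg5, sterol exporters, differed between the diets by −0.059 ± 0.06 and 0.075 ± 0.09. Abcg5 ran against Sqle on linseed oil over 6 mice (r = −0.83, exact permutation test, adjusted p = 0.034; rho = −0.83, adjusted p = 0.096; r = −0.41 without the 2 farthest mice) and had r = −0.026 on palm oil; the difference between the diets was not tested. Abcg8, its partner, and Mylip, which degrades lipoprotein receptors, had the next smallest p after Cyp7a1 (0.14 ± 0.09 and 0.25 ± 0.17). Of 7 genes of esterification and lipoprotein uptake, 1 passed, the receptor Vldlr, higher on linseed oil by 1.35 ± 0.20 (limma adjusted p = 0.002; 0.175 without slides 4 and 5). Its size depended on the processing, at 0.49 with normexp background correction (limma adjusted p = 0.047) and 0.70 in the authors' value table. The next was Scarb1, the HDL receptor (−0.26 ± 0.10, adjusted p = 0.354).

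Outside the set, 67 of 15926 genes (0.421%) had an r above 0.7 with the members' mean in both diets, and 15 had one below −0.7 in both. Of the 10 most alike, those with a name reported here were Pstpip2, an adaptor of tyrosine phosphatases (r = 0.88 on linseed oil and 0.98 on palm oil), Tmem97, an endoplasmic reticulum protein that binds sterols (0.97 and 0.89), Dntt, the template-free DNA polymerase of lymphocytes (0.94 and 0.90), Lpcat3, a lysophospholipid acyltransferase (0.92 and 0.92), and the pseudogene Gm5809 (0.92 and 0.91). The others include 4 probes that the array leaves without a gene name. Lpcat3 is also in the list of LXR targets and efflux genes above, and Tmem97 in that of other sterol synthesis and its control.

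Of those 4 unnamed probes, 3 share a long run of bases with the 60-base probe of Fdps, and no other probe on the array, read on the same strand, shared 25 or more consecutive bases with a probe of any member. The array places them at chr6:6685424-6685483, chr13:68996379-68996438 and chrX:57979543-57979602, and Fdps itself on chromosome 3, in a build the files do not name. The first line is the 31-base run that the probes on chromosomes 6 and 13 share with the Fdps probe, and the second the 27-base run shared by the probe on chromosome X, all in lower case because no part is singled out.
Fdps and 2 unnamed probes: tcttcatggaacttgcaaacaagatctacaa
Fdps and the third unnamed probe: ggagaaagtgaccccggaattggagag
The probe on chromosome 6 ranged from 2.69 to 5.35 on linseed oil and from 3.32 to 5.88 on palm oil, that on chromosome 13 from 3.54 to 6.12 and from 4.45 to 6.81, and that on chromosome X from 2.80 to 5.75 and from 3.57 to 6.16. Across 6 linseed mice their r with Fdps was 0.99 to 1.00. Whether these probes and the Fdps probe bind the same RNA was not tested, and the level of Fdps is uncertain to that extent. The fourth unnamed probe lies 331 bases from the probe on chromosome 13.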

How the data were processed

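Liver RNA of 18 mice was hybridised to single-colour arrays. Spots were quantified with Agilent Feature Extraction 9.5.3.1, per the file headers, and the intensity the authors deposited is that software's background-subtracted processed signal. The log2 value table the authors deposited served as an alternative, whose exact scaling no source used here gives. Each array's log2 intensity was set relative to the 75th percentile of its non-control spots. Spots marked as non-uniform or population outliers were left out. A probe was kept if above background on 8 arrays with 6 values in each diet, and each gene was read from its brightest such probe. Of 39429 probes, 15951 genes were tested with limma 3.58.1 (R 4.3.3), two-sided, with Benjamini-Hochberg adjustment at 0.05; the fit was tested on simulated data. Where a diet had 10 mice, permutation tests used 100000 resamples, and exact enumeration otherwise, in Python with NumPy. Slides were read from the headers, where the arrays without a barcode were taken as slide 1. The genes, the lists and the tests were chosen with earlier results of these data known. Named were all members, 6 related genes, the 2 genes of smallest p in each lipid list, and the 10 genes most alike to the members; 2 of these genes are not reported here. Depth on arrays is set by spot intensity, and the number of arrays limits the precision. Background correction, scaling, filters, probe choice, slide, replicate number and single arrays were varied.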

Additional observations from a re-analysis of the deposited data

Results flagged for a closer look

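Each gene in each diet was checked for a mouse standing far from the others, 50 groups in all, and chance alone gives about 1 in 20. Mvk in linseed replicate 7 was the 1 found, at 1.27, against 2.50 to 3.40 in the other linseed mice.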

How the results depend on the processing

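Under each of the 35 alternatives, 0 members passed the threshold, and 820 member differences kept their direction while 49 turned it. With the percentile taken over detected probes or over unmarked spots, Insig1 gave −0.016 and −0.025 and Npc1 −0.0038 and −0.013. With median scaling, Stard4 gave 0.014 and Mmab 0.025. With the mean of its probes Stard4 gave 0.011. With slide as a fixed block Stard4 gave 0.0044 and Mmab 0.035, and with slide as a random block Mmab gave 0.0072. Without slide 1, Insig1 gave −0.023, Stard4 0.041 and Aacs 0.044, and without slides 4 and 5 Insig1 gave −0.061. The authors' value table gave 0.017 for Mmab. With single mice left out, the differences that turned sign in at least 1 case ranged from −0.31 to 0.0043 for Idi1, from −0.23 to 0.032 for Lss, from −0.20 to 0.14 for Mvk, from −0.13 to 0.14 for Aacs, from −0.095 to 0.12 for Insig1, from −0.15 to 0.055 for Stard4, from −0.12 to 0.090 for Mmab and from −0.0014 to 0.055 for Npc1.

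The count of all genes past the threshold, 121, became 68 with normexp, 42 with the percentile over unmarked spots, 44 with no filter on dim probes, 200 with slide as a random block, 30 without slide 1, 21 without slides 4 and 5, and 51 to 142 with single mice left out. The cause was not tested. The palm median correlation between members was 0.86 without slides 4 and 5, and with single mice left out it was 0.70 to 0.79 on palm oil and 0.69 to 0.83 on linseed oil. With the replicate number as a block 18 genes and 0 of 24 members passed, and Mmab gave 0.038. Same-numbered mice correlated from −0.23 to 0.49, over 0.1 in 5 of 8. The mice of replicates 1 to 5 shared a slide (r from 0.24 to 0.49), as did those of replicate 7 (0.095). Those of replicates 6 and 8 did not (0.0071 and −0.23). The part of slide in these values was not tested, and the main fit took the numbers as neither pairs nor blocks. Dim second probes of Fdft1 and Srebf2 limit what they can show.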
